A study of Mus musculus with 7 samples.

Results

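Wfdc2 encodes a small secreted protein of epithelial cells, also known as HE4, and the table of splicing events holds 3 rows for it out of 278 rows under 228 gene names. The members are all rows with that gene name. The gene was chosen by the percent spliced in (PSI) values of these same libraries, so its levels in control and mutant are a description and were not tested. PSI is the percentage of the reads at an event that support the form the table calls inclusion. The 3 rows are typed as alternative first exons in the table, that is, as a switch between first exons. In the annotation, however, the exons compared are the first, the second and the third exon of the same transcript. The rows give the share of junctions that join exon 1 directly to exon 3 or exon 4, which leave out exon 2 or exons 2 and 3, against junctions that start at exon 2 or exon 3. The share that leaves them out was higher in all 4 mutant libraries than in all 3 controls. Where the RNAs began is not in the table, so a change in start site was not tested.

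The RNA-seq libraries came from epithelial tissue of the incisor cervical loop, the stem cell niche at the growing end of the mouse incisor, in mice of 8 to 10 weeks. All 7 libraries carry K14CreER;Srsf1fl/fl, in which the keratin 14 promoter drives a tamoxifen-dependent Cre recombinase in epithelial cells and Srsf1 is flanked by loxP sites. Control libraries 1, 2 and 7 are from mice that were not induced, and mutant libraries 3, 4, 5 and 9 are from mice given tamoxifen, so tamoxifen and loss of Srsf1 cannot be told apart. The labels do not say whether each library is a separate animal. Neither the number of reads behind a PSI value nor any expression level is in the table, so the depth is unknown, the tissue could not be checked against its marker genes, and the amount of Wfdc2 RNA could not be compared.

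Proteins of this family carry whey acidic protein (WAP) domains, compact folds held together by disulfide bonds between conserved cysteines, and several members inhibit proteases or act against microbes. WFDC2 enters the secretory pathway through an amino-terminal signal peptide and carries 2 WAP domains joined by a linker. It is made by many lining and glandular epithelia. SRSF1 belongs to the SR family of splicing factors, which bind sequences within exons and commonly promote their use. Leaving out an internal exon is called exon skipping.

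Wfdc2 (ENSMUSG00000017723.11) lies on the plus strand of chromosome 2, from 164562413 to 164568510 on GRCm38. The GENCODE M21 annotation lists 5 transcripts, and the full-length coding transcript, Wfdc2-201, has 5 exons. Exon 1 spans 164562579 to 164562804, exon 2 spans 164563308 to 164563451, exon 3 spans 164564057 to 164564212, exon 4 spans 164565792 to 164565938 and exon 5 spans 164568335 to 164568510. Translation starts in exon 1 at 164562726 and ends with the stop codon in exon 4 at 164565937, so exon 5 is wholly untranslated. The coding parts of the exons are printed here from the M21 transcript, 5′ to 3′ on the coding strand, because the finding turns on which part of the protein each exon supplies. Capitals mark codons for cysteine in the reading frame of Wfdc2-201.
Exon 1, coding part (chr2:164562726-164562804): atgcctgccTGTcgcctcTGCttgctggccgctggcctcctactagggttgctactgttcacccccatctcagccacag
Exon 2 (chr2:164563308-164563451): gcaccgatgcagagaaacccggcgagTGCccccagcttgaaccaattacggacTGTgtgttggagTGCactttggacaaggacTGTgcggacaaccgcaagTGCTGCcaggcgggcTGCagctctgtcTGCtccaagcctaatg
Exon 3 (chr2:164564057-164564212): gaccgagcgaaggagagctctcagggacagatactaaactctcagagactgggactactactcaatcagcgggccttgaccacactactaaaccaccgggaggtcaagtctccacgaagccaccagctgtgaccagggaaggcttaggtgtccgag
Exon 4, coding part with the stop codon (chr2:164565792-164565937): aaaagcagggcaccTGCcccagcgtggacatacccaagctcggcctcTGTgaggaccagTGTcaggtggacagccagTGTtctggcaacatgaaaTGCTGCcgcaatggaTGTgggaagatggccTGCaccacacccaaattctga

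The capitals fall into separate blocks. Exon 2 holds 8 cysteine codons and exon 4 holds another 8, so each supplies the cysteines of 1 WAP domain. Exon 3, which encodes the linker, holds 0 cysteine codons, and 20 of its 52 codons are for serine, threonine or proline. Of the 27 codons that start in exon 1, which encodes the signal peptide, 9 are for the hydrophobic residue leucine and 2 for cysteine. The cysteine totals of the forms given below include these 2. Each codon was counted in the exon that holds its first base.

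The first listed event counts junctions that end at the start of exon 4, where inclusion is the junction from exon 1 straight to exon 4 (164562805 to 164565791). Its PSI was 5.51%, 5.60% and 2.61% in control libraries 1, 2 and 7. In mutant libraries 3, 4, 5 and 9 it was 21.60%, 32.00%, 28.15% and 20.18%. Every mutant value lay above every control value, with 14.58 percentage points between the highest control and the lowest mutant. The mean was 4.57% ± 1.70 (SD, n = 3) in the controls and 25.48% ± 5.56 (SD, n = 4) in the mutants, and the difference of the medians was 19.37 points. This junction defines the form that lacks both exon 2 and exon 3.

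The same acceptor was read from the other side by a second event, in which inclusion is the junction from exon 3 to exon 4 (164564213 to 164565791). Control libraries 1, 2 and 7 had a PSI of 92.91%, 94.40% and 96.73%. Mutant libraries 3, 4, 5 and 9 had 78.40%, 68.00%, 71.85% and 79.82%. The groups were again apart, by 13.09 points. The mean was 94.68% ± 1.93 (SD, n = 3) in the controls and 74.52% ± 5.56 (SD, n = 4) in the mutants, and the difference of the medians was −19.28 points. This row is no separate evidence, because it shares its junctions with the one before: in 5 of the 7 libraries both PSI values sum to 100% within 0.01 points. What is missing from 100% belongs to the junction from exon 2 to exon 4, which leaves out exon 3 alone. That junction took 1.58% in control 1, 0.66% in control 7, and 0.00% in control 2 and in the 4 mutants.

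The remaining event counts junctions that end at the start of exon 3, and so rests on other junctions. Inclusion here is the junction from exon 2 to exon 3 (164563452 to 164564056), and exclusion joins exon 1 to exon 3, leaving out exon 2. PSI was 97.17%, 99.03% and 98.31% in control libraries 1, 2 and 7, and 84.67%, 72.34%, 79.76% and 87.37% in mutant libraries 3, 4, 5 and 9. The gap between the groups was 9.80 points. The mean was 98.17% ± 0.94 (SD, n = 3) in the controls and 81.03% ± 6.60 (SD, n = 4) in the mutants, and the difference of the medians was −16.09 points. Put the other way, exon 2 was missing from 0.97 to 2.83% of the junctions into exon 3 in the controls and from 12.63 to 27.66% in the mutants. The exclusion side pools 2 junctions, neither of which is an M21 intron. One starts at the annotated end of exon 1, and the other starts 53 bases further on, at 164562858. How the reads divide between them is not given. As 53 is not a multiple of 3, RNA that runs on from exon 1 to the second site would not keep the frame. Whether RNA from the second site holds exon 1 is not known.

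**Figure D1:**
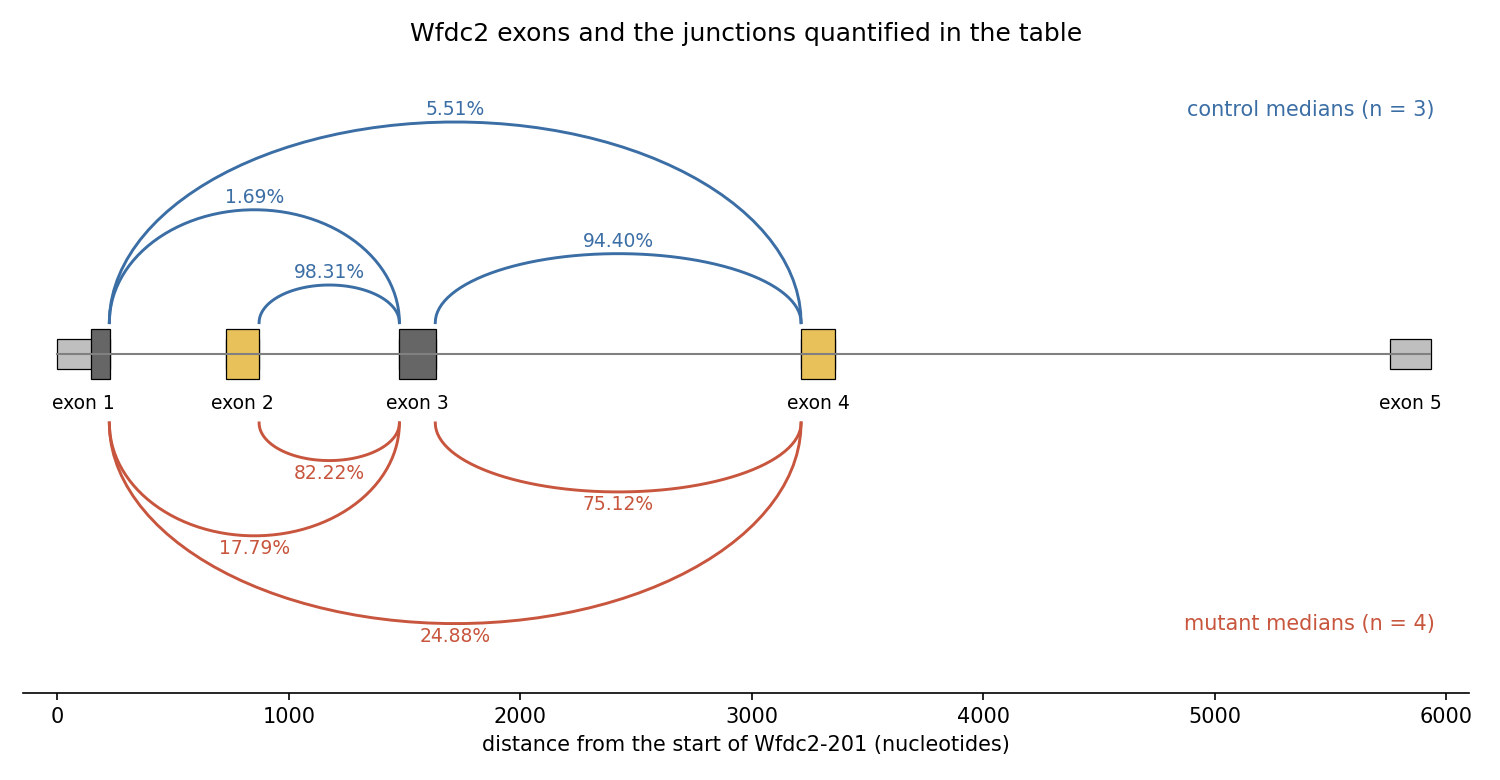
Exons of Wfdc2-201 to scale, with distance from its start in nucleotides on the x axis; tall boxes are coding, and yellow marks the 2 exons with 8 cysteine codons. Arcs are junctions labelled with the group median, controls above (n = 3) and mutants below (n = 4). Arcs into exon 4 give shares of the junctions into exon 4, and arcs into exon 3 give shares of the junctions into exon 3. The arc from exon 1 to exon 4 goes from 5.51% to 24.88%. The one from exon 1 to exon 3, drawn once for both of its start sites, goes from 1.69% to 17.79%. The rare junction from exon 2 to exon 4 and junctions that the rows do not count, such as exon 1 to exon 2, are not drawn.

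**Figure D2:**
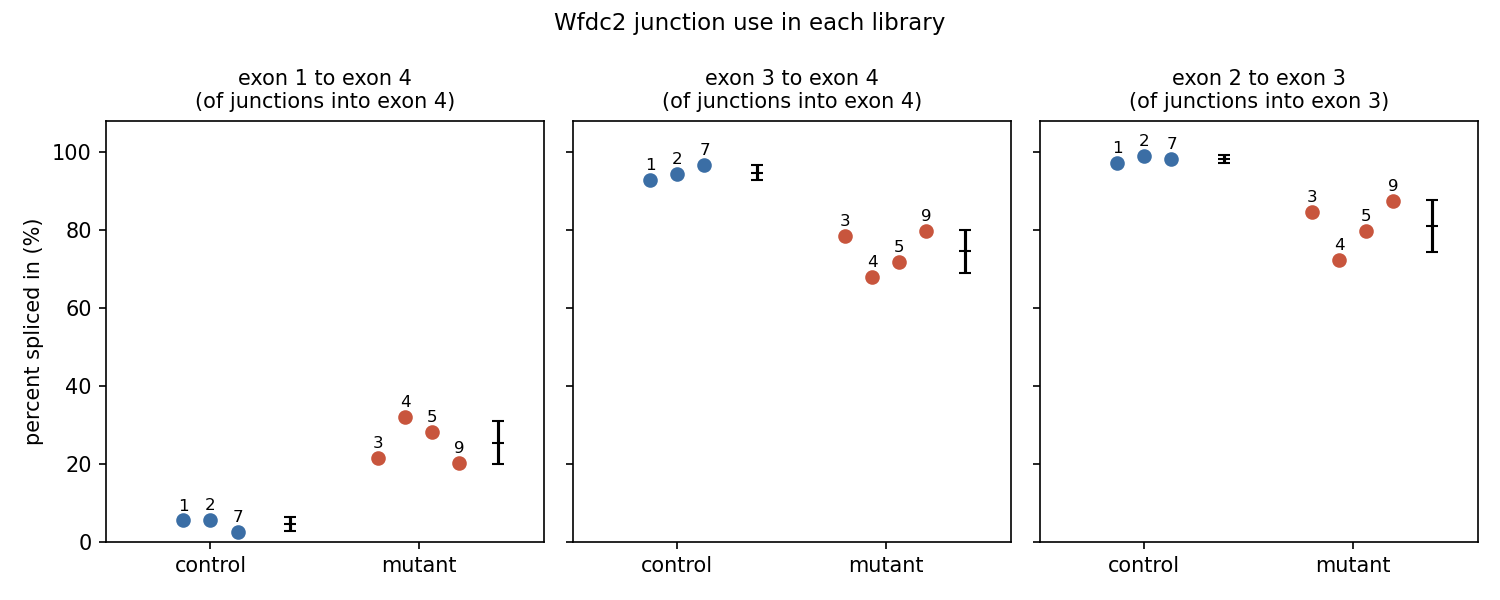
PSI in percent on the y axis for each of the 3 Wfdc2 events, with 1 point per library, numbered as in the labels; black marks are the mean and the SD of each group. The 4 mutants lie between 20.18% and 32.00% in the left panel, above all controls, and below all controls in the other two.

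Control and mutant values do not overlap in 3 of 3 Wfdc2 rows, and the same holds for 95.7% of the rows of the whole table, so non-overlap says nothing particular about this gene. The table is itself a selection: no DRIMSeq corrected p in it reaches 0.1. For Wfdc2 the authors' deposited table gives DRIMSeq corrected p-values of 3.42e-08, 3.13e-07 and 9.61e-06 for the junctions 1 to 4, 3 to 4 and 2 to 3. The JuncBASE corrected p-values given there for the same rows are 0.315, 0.315 and 0.453. By the absolute difference of medians the 3 rows rank 71, 72 and 106 of 278, so Wfdc2 is not at the extreme of the table.

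No annotated RNA starts at exon 2 or exon 3. Of the 5 M21 transcripts, 0 begin with either exon and 3 begin with a first exon that ends at 164562804, the end of exon 1. Wfdc2-204 begins at 164563019 and Wfdc2-205 at 164562413, and Wfdc2-205 also splices into the stretch that ends at 164562804. The RefSeq promoter table for GRCm38.p6 places its 2 Wfdc2 start sites at 164562715 and 164562716, both inside exon 1. A junction shows only which exon end was used and not where the RNA began. RNA that starts as Wfdc2-204 does lacks exon 1 and adds to the junction from exon 2 to exon 3, so the shares could also move with the start site, which was not tested. The type given to these rows is not peculiar to Wfdc2: of 28 rows of that type in 26 other gene names, 16 also list at least 1 exon whose 3′ end is the end of an internal exon only in M21, and in 12 all listed exons end where an annotated first exon ends.

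The bases across each junction show what happens to the reading frame. Printed are the 15 bases on either side of each junction that decides between the forms, with the codon split by the junction in capitals.
Exon 1 to exon 2 (both exons kept): ccatctcagccacaGGCaccgatgcagaga
Exon 2 to exon 3 (both exons kept): gctccaagcctaatGGAccgagcgaaggag
Exon 3 to exon 4 (both exons kept): gcttaggtgtccgaGAAaagcagggcacct
Exon 1 to exon 3 (exon 2 left out): ccatctcagccacaGGAccgagcgaaggag
Exon 1 to exon 4 (exons 2 and 3 left out): ccatctcagccacaGAAaagcagggcacct

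Exons 1, 2 and 3 each give a single G to the split codon, so the codon depends only on the exon that follows. It is GGA before the rest of exon 3 and GAA before the rest of exon 4, whichever exon comes first. Exon 2 has 144 nucleotides and exon 3 has 156, and both numbers are multiples of 3. Any combination of the 2 exons therefore keeps the frame and ends at the same stop codon. The full form encodes 174 residues with 18 cysteines. Joining exon 1 to exon 3 gives 126 residues, 72.4% of the full length, and 10 cysteines, with the first WAP domain lost and the linker and second WAP domain kept. Joining exon 1 to exon 4 gives 74 residues, 42.5% of the full length, also with 10 cysteines: the signal peptide is followed directly by the second WAP domain. This shortest form is annotated as Wfdc2-202, and the form that lacks exon 3 alone, with 122 residues, as Wfdc2-203, whereas the form of exons 1, 3 and 4 has no M21 transcript. The coding part of exon 1 and that of exon 4 are in all 4 forms, so every one of them starts with the signal peptide. These are lengths read from the annotation, and no protein was measured.

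The 3 rows can be put together into shares of the forms. The share of RNAs with both exons was taken as the PSI of exon 3 to exon 4 times the PSI of exon 2 to exon 3. This holds if RNAs with and without exon 2 join exon 3 to exon 4 alike and if RNA that joins exon 1 to exon 3 goes on to exon 4. RNA that holds exons 2 and 3 but starts downstream of exon 1, as Wfdc2-204 does, is counted in this share too. Under these assumptions the share is therefore an upper limit for RNA that encodes the 174 residues. Without them the limit is the PSI of exon 3 to exon 4, 92.91 to 96.73% in the controls and 68.00 to 79.82% in the mutants. Under the assumptions, RNA with exons 2 and 3 made up 90.28%, 93.48% and 95.10% of the exon 4 junctions in control libraries 1, 2 and 7. It made up 66.38%, 49.19%, 57.31% and 69.74% in mutant libraries 3, 4, 5 and 9. The groups were 20.54 points apart, and the difference of the medians was −31.64 points. That is larger than for any single Wfdc2 row, but the share is a product of PSI values that both fell. RNA that leaves out exon 2 alone took 0.92 to 2.63% in the controls and 10.08 to 18.81% in the mutants. This share pools the junction from the end of exon 1 with the one from 164562858, which would not keep the frame in RNA that runs on from exon 1. How much of it encodes the 126 residues is therefore unknown. Under the same assumptions, forms without exon 2, and so without the first WAP domain, added up to 4.24 to 8.14% in the controls and 30.26 to 50.81% in the mutants. The part from the junction of exon 1 to exon 4 does not need them. It was 2.61 to 5.60% in the controls and 20.18 to 32.00% in the mutants.

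**Figure D3:**
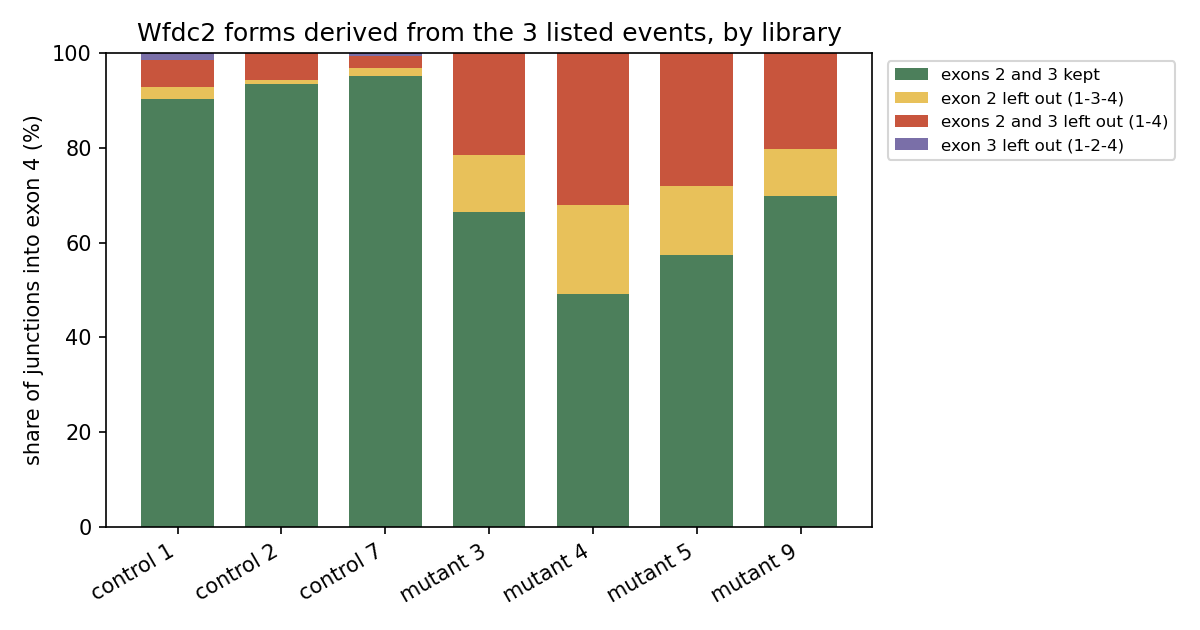
Stacked bars give, for each library on the x axis, the derived share of each Wfdc2 form among the junctions into exon 4 (y axis, percent). The green part, with exons 2 and 3 both kept, is at 90.28% or more in the 3 controls and between 49.19% and 69.74% in the 4 mutants, where both shortened forms take the rest. The part with exon 2 alone left out pools both start sites of the junction into exon 3.

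The mutant libraries differed among themselves by more than the controls did. The range of the derived share with exons 2 and 3 was 20.55 points in the mutants and 4.81 points in the controls. These ranges cannot be compared directly, because they cover 4 mutants and 3 controls and the control values lie nearer to the upper bound. Library 4 lay farthest from the controls in all 3 rows, followed by libraries 5, 3 and 9. This order was common in the table: library 4 lay farthest from the control median in 57.2% of the 278 rows, and library 9 lay nearest in 48.9%. The one row of Srsf1, the deleted gene, joins its exon 1 to an exon of the neighbouring gene Vezf1, and its order was another. PSI there was 5.83%, 8.00% and 10.07% in control libraries 1, 2 and 7, and 65.60%, 44.74%, 85.52% and 55.83% in mutant libraries 3, 4, 5 and 9. Library 4, with the highest share of Wfdc2 junctions that leave exons out, thus had the lowest mutant value of the Srsf1 row. Pearson's r of the Srsf1 row with the Wfdc2 junction from exon 1 to exon 4 was 0.851 over the 7 libraries. After subtracting each group's mean it was −0.124. With 4 mutants these coefficients are a description and were not tested.

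GGA was searched as a short motif found in many SRSF1 binding sequences, on the coding strand with overlaps allowed. Exon 2 holds 5 matches and exon 3 holds 5, and the reverse complement TCC occurs 1 time and 2 times. Among 1168 internal coding exons of M21 with the length of exon 2, 96.8% hold at least 1 GGA, the median is 3, and 27.4% hold 5 or more. For the 927 exons with the length of exon 3, these values are 96.9%, 3 and 29%. Neither exon is thus unusual in its GGA count, and a match of 3 letters is no binding site.

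Other rows of the same type moved both ways. By limma over the whole table (Benjamini-Hochberg adjusted p below 0.05), 95.7% of all 278 rows were called, 47 higher and 219 lower in the mutants. The sign depends on which form is called inclusion: Sec31a has rows with differences of medians of −10.52 and 10.24 points. Of the 28 rows of other genes in this type, 5 rose, 18 fell and 5 did not pass. Their median absolute difference of medians was 11.25 points, against 13.57 points over all rows, and the Wfdc2 rows rank 7, 8 and 12 of the 31 in the type. All rows were already selected for a difference between these groups, and those named next were picked by size. Their limma p-values are therefore a description and no independent test. Among gains, the row of Ncor1, a corepressor of nuclear receptors, had a limma difference of 31.38 points (SE 4.45, adjusted p = 0.00112). That of Sdccag3 was 19.80 points (SE 3.02, adjusted p = 0.00122). The row listed under H2-Q4, a class I histocompatibility gene with near-identical copies, had overlapping groups and a difference of medians of 22.30 points. It passed with all libraries (limma adjusted p = 0.0203). With control 2 left out the limma adjusted p was 0.0699 and the difference of medians 15.50 points, and with control 7 left out they were 0.0722 and 14.76 points. Among losses, Tmpo, which encodes lamina-associated nuclear proteins, had a limma difference of −23.15 points (SE 5.25, adjusted p = 0.00454). Klc1, a kinesin light chain, had −22.61 points (SE 1.94, adjusted p = 0.000214). The row under the joined name Clcn4Hps5 had −21.27 points (SE 3.97, adjusted p = 0.00224).

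**Figure D4:**
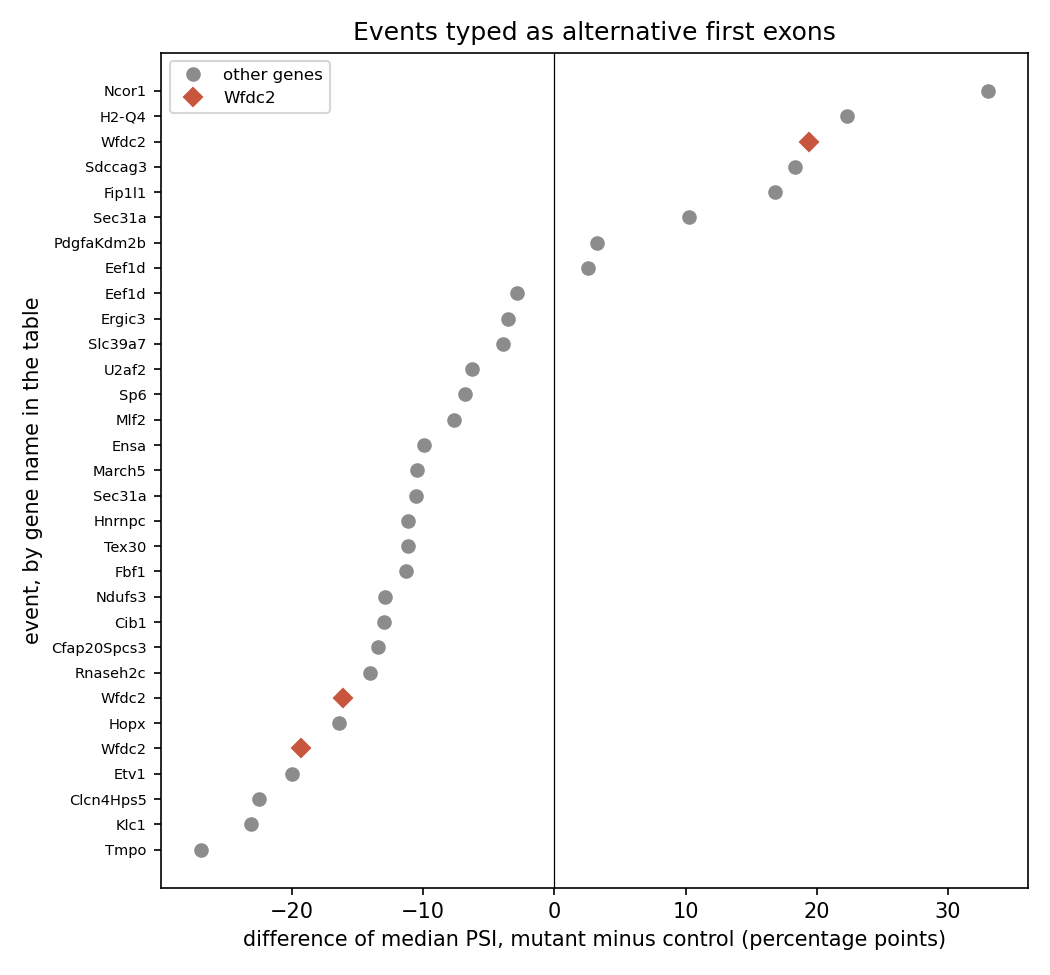
Difference of median PSI, mutant minus control, in percentage points (x axis) for the 31 rows typed as alternative first exons, 1 row per line and named by the table's gene name. Red diamonds are the 3 Wfdc2 rows, at 19.37, −16.09 and −19.28 points; grey points are the rows of other genes, from −26.95 (Tmpo) to 33.05 points (Ncor1).

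Related genes and neighbours of Wfdc2 are not in the table. Of 41 WAP family genes and other secreted protease inhibitors looked up, among them Slpi, Wfdc1, Eppin, Spint1, Spint2 and Timp1, 0 have a row. Within 1 Mb of Wfdc2, 0 other genes have a row. Genes without a row cannot be called unchanged, because the table lists selected events only.

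The rows most like the Wfdc2 junction from exon 1 to exon 4 across the 7 libraries were found by Pearson's r. Since nearly all rows differ between the groups, r is high for most: 159 of 275 rows of other genes (57.8%) had an absolute r above 0.9. The 5 genes with the highest were Cct8, a subunit of the TRiC chaperonin (r = −0.995), Pcm1, a protein of centriolar satellites (−0.993), Net1, a guanine nucleotide exchange factor (−0.993), Pbdc1 (−0.991) and Npepps, an aminopeptidase (0.989). After subtracting each group's mean, 27 of the 275 rows (9.82%) had an absolute r above 0.9. The 5 genes with the highest were then Adam9, a membrane metalloprotease (r = −0.969), Cct8 (−0.966), Ensa (−0.962), Ndufs3, a subunit of respiratory complex I (−0.962), and Zfp740 (−0.961). The cassette exon of Cct8, in both sets, had PSI values of 100%, 98.92% and 99.70% in control libraries 1, 2 and 7. In mutant libraries 3, 4, 5 and 9 it had 86.75%, 77.37%, 82.07% and 88.36%. Its mutants stand in the order of the Wfdc2 rows, with library 4 farthest from the controls and library 9 nearest. These coefficients describe rows measured in the same 7 libraries. Among the mutants, library 4 lay farthest from the control median in 57.2% of all rows.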

How the data were processed

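RNA-seq was made from 7 libraries, 3 control and 4 mutant, grouped by their titles. TopHat, Bowtie, SAMtools, DESeq and the build mm9 are named in the submitters' processing notes, and per the series text JuncBASE quantified splicing. The authors deposited 1 table with PSI as a percent in each library, group medians, their difference in percentage points, and p-values of JuncBASE and DRIMSeq, per the file headers. Filters and read numbers are not given in the sources used here. Recomputed medians differed from the deposited ones by at most 0.005 points. The 7 library columns each matched a title, with 0 per-sample columns unused.

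Of 863 distinct junctions, 650 (75.3%) are introns of GENCODE M21 on GRCm38 (mm10), against 0 after a shift of 1000 bases, so coordinates were read as GRCm38. Exon sequences came from the M21 transcripts, and start sites from RefSeq. Frames were computed with Biopython 1.88 in Python 3.11.15. limma 3.58.1 in R 4.3.3 was fitted to PSI over all 278 rows and tested on simulated data. Its p-values reflect the spread among these libraries alone, which may be technical, and come from rows already selected for this contrast. The log2 odds scale held PSI between 0.5 and 99.5%.

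The gene, the lists and the tests were chosen with earlier results of these data known. Named rows were all of Wfdc2 and Srsf1, the 3 largest gains and losses of the same event type in other genes, the 5 genes most alike by each measure of r, and any row of the protease inhibitor list or within 1 Mb.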

Additional observations from a re-analysis of the deposited data

How the results depend on the processing

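The 3 Wfdc2 differences kept their sign with group means, on the log2 odds scale and without each library. Leaving out 1 library gave 16.09 to 22.64 points for exon 1 to exon 4, −22.55 to −16.00 for exon 3 to exon 4, −18.55 to −13.64 for exon 2 to exon 3, and −36.18 to −27.10 for the derived share with exons 2 and 3, whose alternatives were chosen after seeing the data. Over the whole table limma called 266 rows, 239 to 266 without 1 library, 275 on the log2 odds scale and 278 with a variance trend. Among the 150 rows with known junctions only, it called 147, and groups did not overlap in 142. Without 1 library, groups did not overlap in 267 to 274 rows. Of the other rows typed as alternative first exons, limma called 23, 19 to 24 without 1 library, 13 among known junctions only, and 9 of the 12 whose listed exons all end where an annotated first exon ends, a setting chosen after seeing the data. Fewer rows enter in these last settings. No paired analysis was possible because the groups share no replicate number. Net1 passed with all libraries (limma adjusted p = 0.0372) and not without control 1, 2 or 7 or mutant 3 or 5 (0.0554 to 0.106). Read numbers are unknown, so the precision of a single PSI value cannot be stated.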
